A study of Mus musculus with 6 samples.

Results

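Regulatory T cells (Tregs) that carried transcripts of Itgae, which encodes the integrin alpha E chain known as CD103, but none of Klrg1 were examined in spleen and vascular tissue of mice with an abdominal aortic aneurysm. A cell belonged to this population when it had at least 1 unique molecular identifier (UMI, 1 captured RNA molecule) of Cd3e, Foxp3 and Itgae and no UMI of Klrg1, Areg, Il1rl1 or Cxcr5. In all, 285 of 41303 cells met the rule, 134 from spleen and 151 from vascular tissue, out of 3836 cells with Cd3e and Foxp3 UMIs. These 7 genes chose the cells, so their levels in these cells describe the selection and were not tested. The cells are called Itgae+ Tregs below. They were set beside 1600 Itgae-undetected Tregs, which had no UMI of Itgae or of the 4 exclusion genes, and 1694 tissue-type Tregs, which had a UMI of Klrg1, Areg or Il1rl1 and none of Cxcr5, with or without Itgae.

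All samples came from C57/B6 mice in which elastase (labelled PPE) had induced the aneurysm at an age of 8 to 12 weeks, and tissue was taken 14 days after surgery. CD4+ T cells were sorted and captured with a droplet kit that reads the 5′ ends of transcripts, giving 3 spleen and 3 vascular libraries. There was no untreated group. The aorta was digested with enzymes for 1 h at 37 °C and the spleen was only ground, so tissue and digestion cannot be told apart in any comparison of the 2. The labels do not say whether libraries of 1 tissue came from separate or pooled mice, so p-values measure the spread between libraries, which may be technical. The libraries held 2309 to 9580 cells with median depths of 4423 to 5724 UMIs, and pairs of libraries shared 18 to 136 cell barcodes, at most 1.69% of the smaller library. Spleen library 1 was the smallest, with 13 Itgae+ Tregs, and was left out of their summed expression, which needed 20 cells.

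Tregs restrain other immune cells and depend on the transcription factor Foxp3. The alpha E chain (Itgae; chromosome 11, 73090583 to 73147446, plus strand, GRCm38) pairs only with the beta 7 chain (Itgb7; chromosome 15, 102215995 to 102231944, minus strand), and the pair binds E-cadherin on epithelial cells. TGF-beta signalling induces Itgae in T cells. In mice CD103 marks Tregs with an activated phenotype in peripheral tissues and a part of the Tregs in lymphoid organs. Klrg1, Areg (amphiregulin) and Il1rl1 (the IL-33 receptor ST2) are known from a separate tissue Treg state linked to tissue repair.

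Many members sat at the detection limit of a rule gene. The number of Itgae+ Tregs was 13, 56 and 65 in spleen libraries 1 to 3 and 39, 49 and 63 in vascular libraries 1 to 3. Of the 285 cells, 135 had exactly 1 Itgae UMI, 76 exactly 1 Foxp3 UMI and 15 exactly 1 Cd3e UMI. Just outside the rule, 188 cells met it except for Foxp3 and 563 except for an exclusion gene, of which 89 had a single exclusion UMI. The member with the fewest genes had 1020 (the lower limit for cells was 300), and the highest mitochondrial share in a member was 4.24% (upper limit 10%). Their median depth was 5179 to 6894 UMIs per library, against 4868 to 6388 in Itgae-undetected and 5006 to 6626 in tissue-type Tregs. With so few UMIs per cell, a cell without an Itgae UMI may still express the gene. In the summed members Itgae was at 293, 249.8 and 292 CPM (UMI counts scaled to a common total) in spleen libraries 1 to 3 and 304, 434 and 317 CPM in vascular libraries 1 to 3, with vascular library 2 the highest. Foxp3 was at 632, 402 and 454 and 483, 382 and 446 CPM. In tissue-type Tregs, which were not chosen on Itgae, that gene was at 73.6, 67.3 and 84.4 and 65.0, 96.8 and 106 CPM.

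Markers were read against the labels. Cd4 was detected in 61.2% of the spleen members and 73.5% of the vascular ones, and a Cd8a or Cd8b1 UMI in 14 of 134 and 17 of 151. Neutrophil and mast cell or basophil markers were at 0 in the members of all 6 libraries. Summed CD8 T cell markers reached at most 92.7 CPM in spleen and 179 CPM in vascular members, B cell markers 130.3 and 26.6, markers of NK cells or innate lymphoid cells 13.9 and 297, macrophage or monocyte markers 51.0 and 91.2, and endothelial markers 54.3 and 39.1 CPM. Epithelial markers reached 39.4 and 45.7, erythroid markers 33.8 and 0, smooth muscle markers 0 and 7.61, fibroblast markers 0 and 4.15, and platelet markers 0 and 3.80 CPM. Gamma delta T cell markers reached 11.3 and 2.07 CPM, but only 3 of the listed ones were among the genes counted, so these sums say little about such cells. Among T cells without Foxp3 UMIs the share with Itgae averaged 0.611% ± 0.0622 over spleen libraries and 1.34% ± 0.116 over vascular libraries (SD, n = 3). As a guide to free RNA, cells with at least 2 Cd79a UMIs and no Cd3e UMI, which should be B cells, showed Foxp3 in 1 of 260 and Itgae in 0 of 260, which allows a share of up to 1.15%. Their median depth was 3426.5 to 4296 UMIs per library. Cells with at least 2 Siglech UMIs and no Cd3e UMI, which should be plasmacytoid dendritic cells, showed Foxp3 in 9 of 1288 (0.699%) and Itgae in 3 (0.233%), at a median depth of 7290.5 to 8459 UMIs. Of the 285 members, 25 were among the cells called doublets (2 cells sharing a barcode).

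With tissue-type cells set aside, the share of Itgae+ Tregs was higher in every vascular than in any spleen library. Among Tregs with no UMI of the 4 exclusion genes, their share was 9.63, 8.71 and 10.4% in spleen libraries 1 to 3 and 27.1, 35.5 and 31.5% in vascular libraries 1 to 3. The means were 9.58% ± 0.847 and 31.4% ± 4.21 (SD, n = 3), and the 2 sets of libraries did not overlap. The exact two-sided permutation p was 0.1, the smallest that 3 against 3 libraries can give. With every cell thinned to 2000 UMIs the shares were 4.55% and 21.1%, again without overlap. The rule was applied anew to the thinned counts, so cells that lost their exclusion-gene UMIs could enter these shares.

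As a share of all Tregs the picture was different. Itgae+ Tregs were 6.05, 6.05 and 7.26% of Foxp3+ T cells in spleen and 5.79, 10.2 and 9.75% in vascular tissue, with means of 6.45% ± 0.702 and 8.58% ± 2.43 (SD, n = 3). Vascular library 1 lay below all spleen libraries, and the exact permutation p was 0.4. This count leaves out Tregs with both an Itgae and an exclusion-gene UMI. With those cells included, Itgae was detected in 13.2% ± 0.623 of Tregs in spleen and 32.4% ± 5.17 in vascular tissue, without overlap. The denominators differed in makeup: tissue-type Tregs were 22.1% ± 2.22 of Tregs in spleen and 69.9% ± 5.74 in vascular tissue, while Itgae-undetected Tregs were 60.9% ± 3.62 and 18.4% ± 2.82. Neither of these shares overlapped between tissues (exact permutation p = 0.1 for both). At 2000 UMIs per cell the Itgae+ share was 3.44% in spleen and 7.71% in vascular tissue with no overlap (exact permutation p = 0.1). At 1000 UMIs it was 2.99% and 5.77% (exact permutation p = 0.3). The rule was applied anew to the thinned counts, so a tissue-type Treg that lost its exclusion-gene UMIs could count as Itgae+. At 2000 UMIs tissue-type Tregs were 26.2, 17.3 and 17.1% of Tregs in spleen and 70.1, 60.6 and 59.2% in vascular libraries 1 to 3. The thinned shares therefore do not isolate depth.

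Itgae UMIs were also common in tissue-type Tregs, with a mean share of 26.4% ± 1.40 over spleen libraries and 33.1% ± 5.96 over vascular libraries (SD, n = 3). At 2000 UMIs per cell the shares were 12.9% and 18.7%. Read from the other side, Foxp3 was present in 70.6% ± 1.91 of Itgae-positive T cells in spleen and 72.5% ± 5.67 in vascular tissue. That share depended on depth: it was 48.3% and 51.1% at 2000 UMIs per cell and 33.1% and 32.2% at 1000. Between tissues the exact permutation p was 0.2 for the Itgae share of tissue-type Tregs and 0.6 for the Foxp3 share of Itgae-positive T cells, at full depth. Both shares are made of the genes of the rule.

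**Figure D1:**
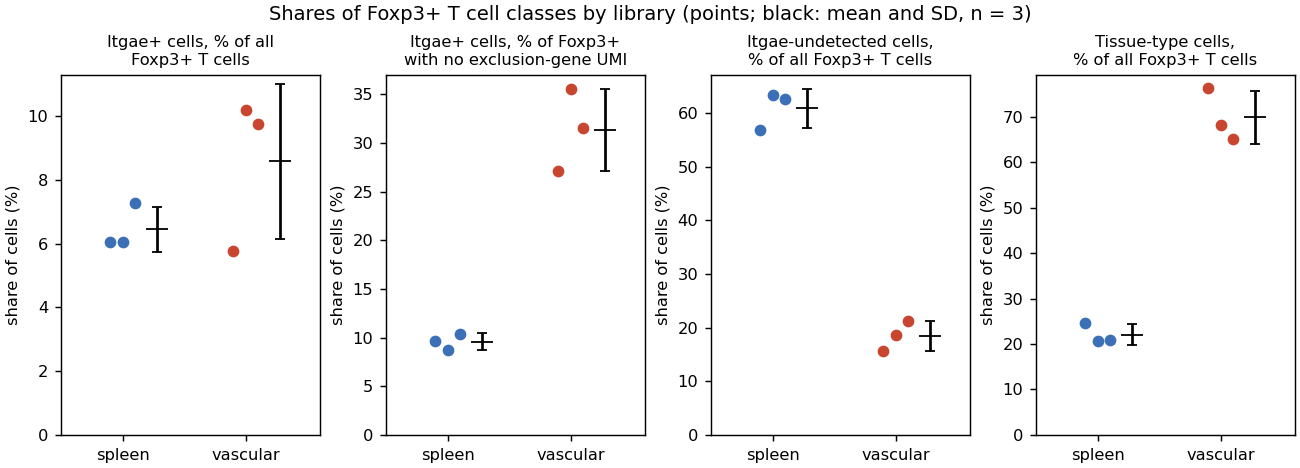
Share of each Treg class by library, in percent of the cells named above each panel. Coloured points are libraries (blue spleen, red vascular), and the black bar and whiskers are the mean and SD of 3 libraries. The Itgae+ share overlaps between tissues over all Foxp3+ cells and does not overlap over Foxp3+ cells without an exclusion-gene UMI.

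Gene expression was compared on UMIs summed over the Itgae+ Tregs of each library. Values are CPM after library scaling, which was set separately for the tissue and the class comparisons, and differences are on the log2 scale with the standard error from edgeR's quasi-likelihood test. A sum does not tell whether more cells expressed a gene or each cell held more of its RNA. Vascular Itgae+ Tregs (3 libraries) were first set against spleen Itgae+ Tregs (libraries 2 and 3). Of 5121 genes tested, 153 were higher (2.99%) and 38 lower (0.742%) in vascular tissue at an adjusted p under 0.05, together 3.73%. Members of the lists for heat shock, effector Tregs and tissue residency were among the higher genes, and genes of resting, recirculating T cells among the lower ones.

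Genes that define Tregs differed modestly. In the Treg core list 4 of 15 genes tested were higher and none lower, with a list median of 0.51 against a median of -0.0026 over all genes tested. The inhibitory receptor gene Ctla4 stood at 1500.4, 1129.8 and 1310.4 CPM in vascular libraries 1 to 3 and 816 and 865 CPM in spleen libraries 2 and 3 (0.64 ± 0.15, adjusted p = 0.034). The IL-2 receptor alpha chain gene Il2ra was at 274, 297 and 308 against 125 and 193 CPM (0.89 ± 0.21, adjusted p = 0.029). Nt5e, which encodes the adenosine-producing enzyme CD73, was at 92.6, 109.8 and 113 against 52.8 and 49.4 CPM (1.05 ± 0.25, adjusted p = 0.033), and the actin-capping gene Capg was also higher (0.77 ± 0.19, adjusted p = 0.034). The libraries did not overlap for any of the 4. Leaving out 1 library at a time (a lone spleen library was then assumed to vary like the others) ended each call: the adjusted p rose to 0.23 without spleen library 2 for Ctla4, 0.38 without spleen library 2 for Il2ra, 0.2 without spleen library 3 for Nt5e and 0.21 without spleen library 2 for Capg. Ikzf2 (Helios), a factor of thymus-derived Tregs, was at 219, 181 and 270.0 and 218 and 362 CPM with overlapping libraries (-0.36 ± 0.23, adjusted p = 0.5), and Nrp1 did not pass either (-0.21 ± 0.25, adjusted p = 0.75).

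For the partner chain of alpha E no difference between tissues was detected. Itgb7 measured 782, 717 and 643 CPM in vascular and 708 and 682 CPM in spleen Itgae+ Tregs, a difference of 0.034 ± 0.15 (adjusted p = 0.95). Around it, 5 of 14 tested genes of the integrin partner and TGF-beta list were higher in vascular tissue and none lower (list median 0.38). They were Tgfb1, the cytokine itself; Furin, the protease that cuts its precursor; Itgav, an integrin chain of the receptors that release it; and Skil and Tgif1, which repress transcription through Smad proteins. Tgfb1 was at 237, 271 and 249 against 134 and 132 CPM (0.92 ± 0.19, adjusted p = 0.013). Skil was at 144, 132 and 121 against 24.2 and 40.0 CPM (2.04 ± 0.29, adjusted p = 0.0013), and Itgav at 237, 213 and 142 against 61.6 and 63.5 CPM (1.63 ± 0.27, adjusted p = 0.0034). Without any 1 library Skil, Itgav and Tgif1 kept their calls, while Tgfb1 went to an adjusted p of 0.11 without spleen library 3 and Furin of 0.12 without spleen library 3. The tested list members Smad2, Smad7, Runx1, Runx3, Cbfb, Tgfbr1, Tgfbr2 and Lrrc32 did not pass.

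Among genes of effector Tregs, 12 of 26 tested were higher in vascular Itgae+ Tregs and none lower, with a list median of 1.06. Icos, a costimulatory receptor gene, was at 1174, 1194 and 959 CPM against 396 and 592 CPM (1.16 ± 0.19, adjusted p = 0.0033). Maf, a transcription factor gene of IL-10-producing T cells, was at 552, 684 and 396 against 226 and 190.4 CPM (1.37 ± 0.23, adjusted p = 0.0038). The vascular libraries lay above both spleen libraries for each. S100a4 was at 1045, 1198 and 1024 against 572 and 585 CPM (0.91 ± 0.15, adjusted p = 0.0034), Rora at 374, 329 and 205 against 101 and 72.9 CPM (1.76 ± 0.28, adjusted p = 0.0026), and Fgl2, which encodes a secreted suppressive protein, at 137, 200.1 and 109 against 37.4 and 30.6 CPM (2.09 ± 0.32, adjusted p = 0.0026). Il1r2, a decoy receptor gene for interleukin 1, rose from 21.98 and 21.2 CPM in spleen to 119, 278 and 186 CPM (3.16 ± 0.39, adjusted p = 0.0004). These 6 calls held without any 1 library. Other Treg classes also differed between tissues, on the scaling of the class comparison. Icos was at 210, 214 and 224 CPM in spleen and 865, 638 and 626 CPM in vascular Itgae-undetected Tregs of libraries 1 to 3. In tissue-type Tregs it was at 464, 425 and 480 and 903, 797 and 895 CPM. Maf was at 135, 92.7 and 85.4 and 312, 292 and 224 CPM in Itgae-undetected Tregs, and overlapped between tissues in tissue-type Tregs. These differences were not tested. Tff1, a trefoil factor gene, had 1 UMI in spleen and 154 in vascular members, spread as 66.7, 300.2 and 90.0 CPM over the vascular libraries. The ratio was 131 (95% counting interval 23.1 to 5191). Such an interval covers the counting of pooled UMIs only and leaves out the spread between libraries. Gzmb (granzyme B) did not pass, with 0.20 ± 0.29, adjusted p = 0.8, and neither did Il10 (1.35 ± 0.37, adjusted p = 0.067).

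Genes of resting and recirculating T cells went mostly the other way: 6 of 17 were lower in vascular members and 1, the IL-7 receptor gene Il7r, was higher (0.84 ± 0.19, adjusted p = 0.021; adjusted p 0.14 without spleen library 3). The list median was -0.70. Igfbp4 was at 0, 42.0 and 25.1 CPM against 152 and 101 CPM (-2.42 ± 0.47, adjusted p = 0.011). The survival gene Bcl2 was at 25.9, 22.6 and 37.7 against 112 and 94.0 CPM (-1.77 ± 0.29, adjusted p = 0.0033), and Klf2, a factor that keeps T cells recirculating, at 541, 274 and 492 against 829 and 907 CPM (-0.99 ± 0.22, adjusted p = 0.022). Bcl2 and Igfbp4 kept their calls without any 1 library, but Igfbp4 did not pass with called doublets removed (-1.81, adjusted p = 0.13), and Klf2 went to 0.056 without spleen library 3. The lymph node homing receptor gene Ccr7 (-0.67 ± 0.34, adjusted p = 0.35) and the egress receptor gene S1pr1 (-0.80 ± 0.24, adjusted p = 0.092) did not pass. A Ccr7 UMI was present in 45.5% of spleen and 19.9% of vascular members. In the single libraries that share was 61.5%, 39.3% and 47.7% in spleen and 20.5%, 10.2% and 26.98% in vascular tissue, without overlap. These shares are at full depth and were not tested, and the 61.5% comes from 13 cells with a median of 6894 UMIs. The summed Ccr7 levels did overlap, at 141 and 203 CPM in spleen libraries 2 and 3 and 183, 57.3 and 90.4 CPM in vascular libraries 1 to 3 (class scaling).

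Some genes of receptors that guide T cells, and of tissue residency, were higher. Of 17 chemokine and egress receptor genes tested 5 rose and none fell, and of 13 tissue residency genes 8 rose and none fell, with a median of 1.39. Cxcr6, a receptor gene of tissue-resident T cells, was at 263, 284 and 201 CPM in vascular and 35.2 and 32.9 CPM in spleen members (2.84 ± 0.26, adjusted p = 5.4e-05). Ccr6, whose product senses CCL20, was at 111, 168 and 90.0 against 44.0 and 40.0 CPM (1.52 ± 0.31, adjusted p = 0.015), and Ccr2, a receptor gene of inflammatory recruitment, at 515, 384 and 251 against 119 and 207 CPM (1.21 ± 0.29, adjusted p = 0.034). Ccr1 had 2 UMIs in spleen and 34 in vascular members, a ratio of 14.4 (95% counting interval 3.70 to 124). Itgae-undetected Tregs also differed between tissues, on the scaling of the class comparison. Their Cxcr6 was at 10.8 and 12.8 CPM in spleen libraries 2 and 3 and 167, 194 and 101 CPM in vascular libraries 1 to 3. Their Ccr6 was at 1.08, 9.62 and 14.5 CPM in spleen and 28.4, 59.7 and 46.1 CPM in vascular libraries 1 to 3. Their Ccr2 was at 64.7, 36.7 and 26.02 and 268, 237 and 134 CPM. These differences were not tested. Cxcr6 kept its call without any 1 library, whereas Ccr6 went to an adjusted p of 0.061 without spleen library 3 and Ccr2 of 0.23 without spleen library 2. Residency genes that rose included Rgs1 (0.99 ± 0.22, adjusted p = 0.022; adjusted p 0.21 without spleen library 2), Crem (2.68 ± 0.35, adjusted p = 0.00068) and Nr4a1 (1.39 ± 0.20, adjusted p = 0.0016), of which Nr4a1 is also an early response gene of receptor signalling.

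Of 8 tested genes in a list of peripherally induced Tregs 3 were higher in vascular members (Maf, Ccr6 and Havcr2) and none lower, with a median of 1.36 against -0.0026 over all genes tested.

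Heat shock and early response genes were higher in vascular members. Hspa1a, an inducible HSP70 gene, was at 1200.3, 1117 and 1208 CPM in vascular and 85.7 and 11.8 CPM in spleen members (4.56 ± 0.39, adjusted p = 3.4e-05), and its near-identical neighbour Hspa1b had 4 UMIs in spleen and 417 in vascular members. Reads may be split between the 2. The cochaperone gene Dnajb1 was at 341, 519.7 and 410.3 against 117 and 115 CPM (1.87 ± 0.22, adjusted p = 0.00034), and 6 of 11 heat shock genes were higher. In the early response list 6 of 17 were higher, among them Jun at 1011, 826 and 938 against 319 and 383 CPM (1.40 ± 0.17, adjusted p = 0.00037). Atf3 had no UMI in spleen and 46 in vascular members, at least 13-fold higher against a floor of 3 UMIs over the spleen sum. Only the vascular samples had been digested at 37 °C, so tissue and digestion cannot be told apart here. On the scaling of the class comparison Hspa1a was at 1167, 811 and 1007 CPM in vascular Itgae-undetected Tregs and 1161, 1102 and 1185 CPM in vascular Itgae+ Tregs.

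The 10 largest increases by the rule for named genes also held Cdkn1a (p21, a cell cycle inhibitor; 3.33 ± 0.37, adjusted p = 0.00022), Fosl2 (an AP-1 subunit; 3.18 ± 0.42, adjusted p = 0.0008), Slc15a3 (a lysosomal peptide and histidine transporter; 3.01 ± 0.47, adjusted p = 0.0026), Ctla2a (315, 336 and 262 against 41.8 and 32.9 CPM, adjusted p = 2.7e-05) and Odc1 (ornithine decarboxylase, the first enzyme of polyamine synthesis; 2.93 ± 0.27, adjusted p = 5.4e-05). Odc1 stood at 1152, 1091 and 651 CPM against 103 and 148 CPM. Tmem176b, which overlaps its neighbour Tmem176a on the opposite strand, was also higher (2.99 ± 0.34, adjusted p = 0.00034). The decreases included Rasgrp2, an activator of Rap1 in integrin signalling, at 48.2, 38.7 and 44.0 against 176 and 132 CPM (-1.82 ± 0.25, adjusted p = 0.0012), and Fam65b at 55.6, 54.9 and 48.1 against 145 and 143 CPM (-1.46 ± 0.23, adjusted p = 0.0028). Dtx1, a regulator of Notch signalling, Fdps, an enzyme of isoprenoid synthesis, Mgst2, Nsmce1, Evl and the costimulatory receptor gene Cd27 fell as well, with log2 differences of -1.76 to -1.05. Of the 20 genes with the largest differences (10 in each direction, including Igfbp4, Bcl2, Il1r2, Tff1, Hspa1a and Hspa1b above) 14 kept their calls without any 1 library. The exceptions were Dtx1 (adjusted p 0.052 without vascular library 2), Fdps (0.072 without spleen library 2), Mgst2 (0.26 without spleen library 3), Nsmce1 (0.18 without spleen library 3), Evl (0.095 without spleen library 3) and Cd27 (0.19 without spleen library 3).

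No gene of the proliferation list (16 tested) or of the type I interferon list (18 tested) passed in either direction. Over all genes 857 had an unadjusted edgeR p under 0.05, and DESeq2 called 118 genes in place of 191. Of the genes named, DESeq2 did not call Il2ra, Nt5e, Tgfb1, Furin, Igfbp4, Fdps, Mgst2, Nsmce1 and Evl, and Ctla4 and Furin were not called among cells with at least 2 Itgae UMIs. Markers of other cells moved with this comparison. The summed level of 13 dendritic cell markers was 293 to 558 CPM in spleen and 541 to 2350 CPM in vascular members, with vascular library 1 the highest. Irf8 was higher in vascular members (2.19 ± 0.55, adjusted p = 0.043; adjusted p 0.12 without vascular library 1 and 0.18 with called doublets removed), as was Cd209a, with 0 UMIs in spleen and 34 in vascular members, at least 9.61-fold higher against the same floor. Xcr1 was at 0 in every library, and Flt3 and Clec9a in all but vascular library 1. The 8 markers of NK cells or innate lymphoid cells summed to 0, 13.03 and 13.9 CPM in spleen libraries 1 to 3 and 297, 13.05 and 120.2 CPM in vascular libraries 1 to 3, with Ncr1 at 0 in all 6. B cell markers went the other way, with 45.1 to 130.3 CPM in spleen and 6.52 to 26.6 CPM in vascular members. The part of these cells' RNA in the differences was not tested.

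**Figure D2:**
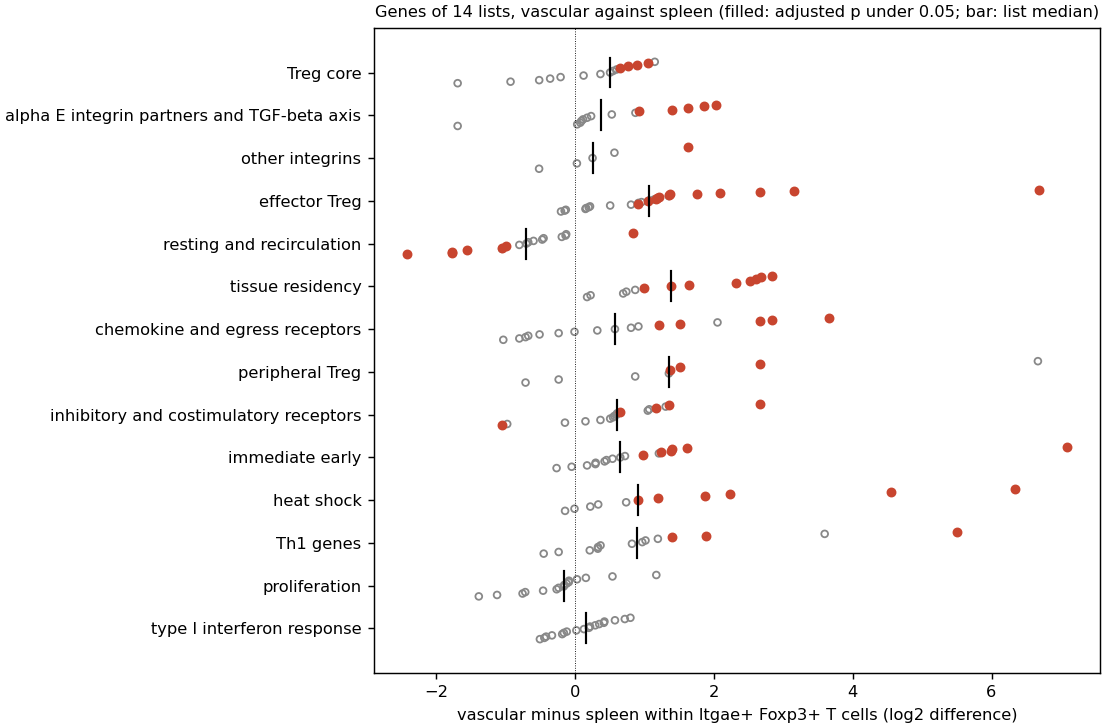
Log2 difference between vascular and spleen Itgae+ Tregs for each tested gene (point) of 14 gene lists. Filled red points passed an adjusted p of 0.05, open points did not, and the black bar is the list median. The effector, residency and heat shock lists lie mostly to the right of 0 and the resting list mostly to the left, while no point of the proliferation or interferon lists is filled.

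Itgae+ Tregs were next compared with Itgae-undetected Tregs of the same libraries, which share tissue and digestion. The classes differ by the detection of Itgae alone, and a deeper cell is more likely to have an Itgae UMI. In spleen 146 of 8467 genes were higher (1.72%) and 129 lower (1.52%) in Itgae+ Tregs, together 3.25%. In vascular tissue 84 were higher (0.992%) and 119 lower (1.41%), together 2.40%. In both tissues Itgae+ Tregs had more RNA of Itgb7, of the chemokine receptors Ccr4, Ccr6 and Ccr2 and of effector Treg genes, and less of the lymph node homing receptor Ccr7.

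Itgb7 separated the classes. It was at 699.9 and 669 CPM in Itgae+ and 388 and 435 CPM in Itgae-undetected Tregs of spleen libraries 2 and 3 (0.78 ± 0.13, adjusted p = 0.00085). In vascular libraries 1 to 3 it was at 756, 707 and 631 and 419.7, 534 and 408 CPM (0.62 ± 0.12, adjusted p = 0.0057). Every Itgae+ sum lay above every Itgae-undetected sum. The adjusted p was 0.11 without spleen library 2 in spleen and 0.1 without vascular library 1 in vascular tissue. At 2000 UMIs per cell an Itgb7 UMI was found in 69.9% of Itgae+ and 46.8% of Itgae-undetected Tregs in spleen, and in 73.6% and 58.2% in vascular tissue (means over 3 libraries). Itgb7 was the only one of 20 tested genes of the integrin partner and TGF-beta list that passed in either tissue.

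Chemokine receptors showed large differences. Ccr4 (chromosome 9, 114490316 to 114504916, minus strand), a receptor gene of skin- and tissue-homing T cells, was at 91.3 and 115 CPM in Itgae+ against 21.6 and 22.2 CPM in Itgae-undetected Tregs of spleen (2.21 ± 0.27, adjusted p = 2.4e-05), and at 139.7, 172 and 84.2 against 48.2, 53.7 and 63.0 CPM in vascular tissue (1.17 ± 0.23, adjusted p = 0.0072). Ccr6 was at 43.5 and 39.2 against 9.62 and 14.5 CPM in spleen (1.88 ± 0.37, adjusted p = 0.0044) and 107, 166 and 88.3 against 28.4, 59.7 and 46.1 CPM in vascular tissue (1.38 ± 0.25, adjusted p = 0.0041). Ccr2 was at 117 and 203 against 36.7 and 26.02 CPM in spleen (2.23 ± 0.29, adjusted p = 6.2e-05) and 498, 379 and 247 against 268, 237 and 134 CPM in vascular tissue (0.81 ± 0.20, adjusted p = 0.035). The classes did not overlap in spleen for these 3, and in vascular tissue they overlapped for Ccr2 only. In the list of chemokine and egress receptors 7 of 18 rose and 2 fell in spleen, and 5 rose and 1 fell in vascular tissue.

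Ccr7 fell in both, from 385 and 341 to 141 and 203 CPM in spleen (-1.10 ± 0.19, adjusted p = 0.0014) and from 380.0, 299.8 and 321 to 183, 57.3 and 90.4 CPM in vascular tissue (-1.66 ± 0.20, adjusted p = 0.0001). Without any 1 library Ccr4 and Ccr2 in spleen and Ccr6 and Ccr7 in vascular tissue kept their calls. The others did not, with an adjusted p of 0.12 without vascular library 2 for Ccr4 and 0.14 without vascular library 1 for Ccr2 in vascular tissue, and of 0.26 without spleen library 2 for Ccr6 and 0.27 without spleen library 2 for Ccr7 in spleen. A test of whether the class difference itself differed between tissues passed for 26 of 8467 genes (0.307%), 23 of them with a lower difference in vascular tissue (0.272%) and 3 with a higher one (0.0354%). Ccr2, Ccr4, Ccr6, Ccr7 and Itgb7 were not among them.

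Effector Treg genes were higher in Itgae+ Tregs, 10 of 26 in spleen and 6 of 26 in vascular tissue, with none lower. The list median was 1.08 in spleen and 0.49 in vascular tissue, against -0.021 and -0.00066 over all genes tested. In spleen S100a6, a calcium-binding protein gene of activated T cells, was at 2541 and 2548 against 736 and 520.1 CPM (2.04 ± 0.13, adjusted p = 2e-09). S100a4 was at 565 and 575 against 159 and 128 CPM (2.02 ± 0.13, adjusted p = 2e-09), and Lgals1 (galectin 1) at 2128 and 1648 against 803 and 611 CPM (1.47 ± 0.13, adjusted p = 2.1e-07). Both S100 genes and Lgals1 differed less in vascular tissue by the test of that difference (-1.41 ± 0.18 for S100a6, -1.16 ± 0.17 for S100a4 and -1.32 ± 0.17 for Lgals1; adjusted p = 0.00029, 0.0013 and 0.00029). There S100a4 was at 1010.4, 1182 and 1004 against 681, 594 and 491 CPM (0.87 ± 0.11, adjusted p = 0.00013). Maf rose in spleen (1.22 ± 0.15, adjusted p = 2.4e-05) and in vascular tissue (0.93 ± 0.11, adjusted p = 0.0001), and Icos likewise (1.15 ± 0.14, adjusted p = 2.4e-05 and 0.62 ± 0.11, adjusted p = 0.0038). The vascular Icos call was lost without 1 library (adjusted p 0.061 without vascular library 2), while both Maf calls and the spleen Icos call were kept. Of the Treg core list Ctla4, Capg and Socs2 rose in both tissues, with Tigit in spleen and Nt5e in vascular tissue. Ctla4 in vascular tissue and Capg and Tigit in spleen kept their calls without any 1 library. The adjusted p rose to 0.082 without spleen library 3 for Ctla4 and 0.19 without spleen library 3 for Socs2 in spleen, and to 0.12 without vascular library 3 for Capg, 0.18 without vascular library 1 for Socs2 and 0.31 without vascular library 3 for Nt5e in vascular tissue. Ctla4 was at 1451, 1115 and 1286 against 973, 759 and 603 CPM in vascular tissue (0.75 ± 0.098, adjusted p = 0.00024). Ikzf2 did not pass (0.056 ± 0.16, adjusted p = 0.93 in spleen and -0.12 ± 0.16, adjusted p = 0.83 in vascular tissue).

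Lag3, an inhibitory receptor gene, was higher in vascular Itgae+ than in Itgae-undetected Tregs, at 89.6, 239 and 230.1 against 102, 53.7 and 87.0 CPM (1.25 ± 0.26, adjusted p = 0.012; adjusted p 0.16 without vascular library 3), with library 1 going the other way. Other genes with the largest increases in vascular tissue were Lgmn (legumain, a lysosomal protease; 1.32 ± 0.25, adjusted p = 0.0057), Tmem176b (1.28 ± 0.23, adjusted p = 0.0038), Malt1 (an NF-kappaB signalling protease; 1.19 ± 0.22, adjusted p = 0.0043), Rnase4, Cdk6, Gbp2, the leukotriene B4 receptor gene Ltb4r1 and Elovl1. The largest decreases included Rrm2, a ribonucleotide reductase subunit, at 7.17, 28.7 and 49.3 against 52.5, 224 and 149 CPM (-2.15 ± 0.37, adjusted p = 0.0038). Pcna, the sliding clamp of DNA replication, Mcm4, a helicase subunit, Dut, which clears dUTP, and the histone genes Hist1h2ap and Hist1h2ae fell too. The histone genes belong to a family of near-identical copies, so their counts are uncertain. Hmgn1, Prpf19 and Npm3 completed the decreases. Of the 20 genes with the largest differences in vascular tissue (Ccr4, Ccr6 and Ccr7 among them) only Rrm2, Ccr7, Hmgn1 and Ccr6 kept the call without any 1 library. Within the proliferation list 2 of 16 genes (Rrm2 and Pcna) fell in vascular tissue, and none passed in spleen, where the list median was 0.59 against -0.56 in vascular tissue.

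In spleen the remaining large increases were Gna15, a G protein subunit, (1.74 ± 0.23, adjusted p = 7.9e-05), Glrx (glutaredoxin; 1.48 ± 0.13, adjusted p = 2.1e-07), Ahnak (1.64 ± 0.20, adjusted p = 2.4e-05), Lgals3 (galectin 3; 1.80 ± 0.29, adjusted p = 0.00056; adjusted p 0.088 without spleen library 2) and Gzmb (1.80 ± 0.33, adjusted p = 0.002; adjusted p 0.28 without spleen library 3). Of the Th1 list 6 of 17 genes rose, among them Cxcr3, the receptor for interferon-induced chemokines, at 222 and 217 against 106 and 88.0 CPM (1.12 ± 0.16, adjusted p = 0.00011). Of the resting list 6 of 19 fell, among them Ly6c1 (-1.58 ± 0.19, adjusted p = 2.4e-05), which shares sequence with Ly6c2, and Lef1 (-0.96 ± 0.17, adjusted p = 0.0018; adjusted p 0.12 without spleen library 3). Immediate early genes fell in 3 of 20 cases (Jun, Fos and Ppp1r15a) in spleen and in none in vascular tissue. Dusp10, a phosphatase gene of MAP kinase signalling, fell (-1.28 ± 0.21, adjusted p = 0.00062), and so did Nsg2, Bmyc, Pdlim1, the NF-kappaB subunit gene Rel, Cd9, Lrig1 and the MHC class II chaperone gene Cd74. Cd74 is also a dendritic cell marker: that list summed to 830 to 1285 CPM in Itgae-undetected and 293 to 558 CPM in Itgae+ Tregs of spleen, without overlap. Markers of NK cells or innate lymphoid cells did not overlap either (59.6 to 109 against 0 to 13.9 CPM), while those of macrophages or monocytes did (42.9 to 137 against 11.3 to 51.0 CPM). In vascular tissue the ranges of the Itgae-undetected and the Itgae+ Tregs overlapped for dendritic cells (730.1 to 2344 and 541 to 2350 CPM), NK cells or innate lymphoid cells (63.8 to 444 and 13.05 to 297 CPM) and macrophages or monocytes (66.8 to 90.1 and 29.4 to 91.2 CPM). The part of these cells' RNA in the class differences was not tested. Of the 20 genes with the largest differences in spleen 10 kept their calls without any 1 library, among them Ly6c1, Dusp10, Lgals1, Glrx, Ahnak, Gna15 and S100a6.

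The count of genes called in spleen rested on both libraries. It dropped from 275 to 59 without spleen library 2 and to 97 without spleen library 3, where 1 library is left. In vascular tissue it dropped from 203 to between 66 and 84 when 1 vascular library was left out. Thinning to 2000 UMIs per cell also changed the makeup of the classes, since the rule was applied anew to the thinned counts. Then 112 cells met the Itgae+ rule, with at least 20 of them in only 3 libraries (spleen 2, vascular 2 and 3). The count of genes called in vascular tissue was 64. After thinning the direction turned for Ctla4 (-0.31) and Rel (0.21) in spleen and for Gbp2 (-0.65) and Hist1h2ae (0.55) in vascular tissue. Cd74, Cd9 and Lrig1 in spleen were not called with doublets removed. Set against all other Foxp3+ T cells, 88 genes were called in spleen, without Ccr7, Lef1, Pdlim1, Cd9, Lrig1 and Tigit, and in vascular tissue Icos, Hmgn1 and Ltb4r1 were among those not called.

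Last, Itgae+ Tregs were compared with tissue-type Tregs of the same libraries. This contrast used the exclusion genes of the rule, and 33.1% of vascular tissue-type Tregs carried Itgae themselves. In vascular tissue 129 of 8467 genes were higher (1.52%) and 160 lower (1.89%) in Itgae+ Tregs, together 3.41%. In spleen 23 were higher (0.272%) and 26 lower (0.307%), together 0.579%. Of 29 genes examined in spleen without 1 library at a time only Itm2b kept its call, and the highest adjusted p without 1 library is given beside the spleen calls below. Itgae+ Tregs had less RNA of Ikzf2, Gata3, Pdcd1 and the TNF receptors Tnfrsf4, Tnfrsf9 and Tnfrsf18 in both tissues, and in vascular tissue more of Maf, Il10 and Ccr6.

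Ikzf2 (chromosome 1, 69531214 to 69687245, minus strand) was at 211, 178 and 265 CPM in Itgae+ and 421, 457 and 411 CPM in tissue-type Tregs of vascular libraries 1 to 3 (-0.95 ± 0.15, adjusted p = 0.00029). In spleen libraries 2 and 3 it was at 215 and 355 and 458 and 443 CPM (-0.71 ± 0.16, adjusted p = 0.048; adjusted p 0.84 without spleen library 2). Gata3, a factor of tissue Tregs and Th2 cells, was at 111, 92.4 and 86.3 against 267, 215 and 189.6 CPM in vascular tissue (-1.21 ± 0.14, adjusted p = 2.2e-05) and 104 and 108 against 173 and 183 CPM in spleen (-0.81 ± 0.17, adjusted p = 0.018; adjusted p 0.49 without spleen library 2). No Itgae+ sum overlapped the tissue-type sums for either gene. Against Itgae-undetected Tregs Gata3 did not pass (0.048 ± 0.17, adjusted p = 0.98 in spleen and 0.023 ± 0.17, adjusted p = 0.98 in vascular tissue). Neither did Ikzf2, as given above, so the lower levels hold against tissue-type Tregs only.

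Pdcd1, which encodes the inhibitory receptor PD-1, was at 86.0, 98.7 and 61.6 CPM in vascular Itgae+ Tregs and 383, 321 and 319 CPM in tissue-type Tregs (-2.08 ± 0.16, adjusted p = 1e-07). In spleen it was at 32.6 and 30.01 against 81.1 and 67.9 CPM (-1.32 ± 0.27, adjusted p = 0.02; adjusted p 0.57 without spleen library 2). Tnfrsf9 (4-1BB) was at 272, 226 and 228 against 803, 602 and 565 CPM in vascular tissue (-1.43 ± 0.12, adjusted p = 2.3e-07) and 154 and 187 against 325 and 415 CPM in spleen (-1.12 ± 0.15, adjusted p = 0.00054; adjusted p 0.058 without spleen library 2). Tnfrsf4 (OX40; -0.92 ± 0.12, adjusted p = 8.1e-05), Tnfrsf18 (GITR; -0.60 ± 0.11, adjusted p = 0.0019) and the chemokine receptor gene Ccr8 (-1.65 ± 0.21, adjusted p = 5.8e-05) were lower in vascular tissue, and in spleen Tnfrsf4 (adjusted p = 0.0012, 0.27 without spleen library 2) and Tnfrsf18 (adjusted p = 0.006, 0.57 without spleen library 2) were lower too. In the list of inhibitory and costimulatory receptors 5 of 20 were lower and 2, Ctla4 and Lag3, higher in vascular tissue, and 4 were lower and none higher in spleen. Itgae-undetected Tregs had Pdcd1 at 27.4 and 30.5 CPM in spleen libraries 2 and 3 and 126, 121 and 114 CPM in vascular libraries 1 to 3.

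In the list of peripherally induced Tregs 4 of 10 genes were higher in vascular Itgae+ Tregs and none lower, with a median of 0.87 against -0.018 over all genes tested. Maf was at 534, 675 and 388 against 279, 297 and 245 CPM (0.93 ± 0.10, adjusted p = 1.1e-05) and Il10, the suppressive cytokine, at 46.6, 63.7 and 53.4 against 21.7, 12.5 and 20.7 CPM (1.601 ± 0.36, adjusted p = 0.012; adjusted p 0.09 without vascular library 2). Cxcr3 was higher in vascular tissue (0.81 ± 0.14, adjusted p = 0.0011) and in spleen (0.89 ± 0.16, adjusted p = 0.006; adjusted p 0.21 without spleen library 2). Ccr4 was higher in both tissues (1.54 ± 0.21, adjusted p = 9.3e-05 in vascular tissue; 1.40 ± 0.27, adjusted p = 0.013 in spleen, adjusted p 0.52 without spleen library 3), and Ccr6 in vascular tissue (1.32 ± 0.22, adjusted p = 0.00061). Itgb7 was at 756, 707 and 631 against 499.6, 498 and 588 CPM and did not pass (0.39 ± 0.11, adjusted p = 0.056).

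**Figure D3:**
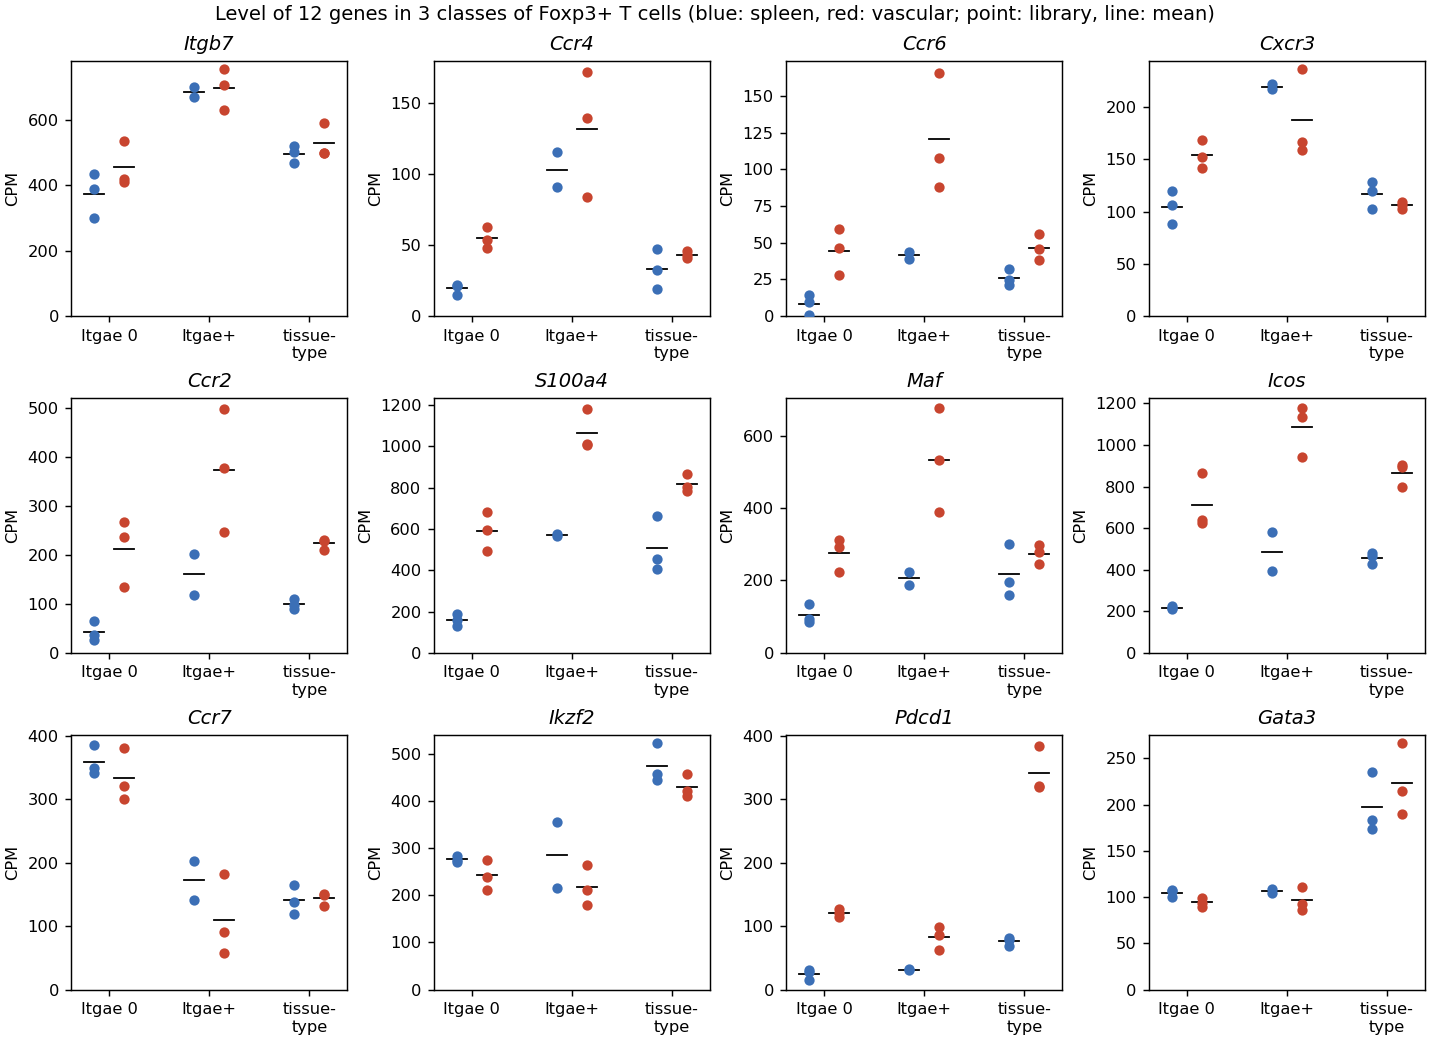
Level (CPM) of 12 genes in Itgae-undetected, Itgae+ and tissue-type Tregs. Each point is the sum over 1 library (blue spleen, red vascular) and the line is the mean, with no Itgae+ point for spleen library 1. Itgb7, Ccr4 and Ccr6 are highest in the Itgae+ column within each tissue, whereas Ikzf2 and Gata3 are highest in the tissue-type column and Pdcd1 is far higher in vascular tissue-type cells than elsewhere.

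Of the resting and recirculation list 5 of 19 genes were higher in vascular Itgae+ than in tissue-type Tregs and none lower (median 0.36). Dtx1 was at 25.1, 31.9 and 74.0 against 2.499, 12.5 and 14.6 CPM (2.18 ± 0.28, adjusted p = 6.2e-05), and Foxo1, Foxp1, Klf3 and Ly6c1 were higher too. Of the residency list 6 of 13 were lower, such as Nr4a1 (-0.98 ± 0.10, adjusted p = 6.7e-06) and Rgs2 (-1.17 ± 0.17, adjusted p = 0.00015), and of the immediate early list 6 of 20 were lower and 1, Jun (0.44 ± 0.11, adjusted p = 0.022; adjusted p 0.24 without vascular library 1), higher. Of the type I interferon list 5 of 22 genes were higher and 1, Bst2, lower. The higher ones included Gbp2 (1.27 ± 0.19, adjusted p = 0.0002). Of the integrin partner and TGF-beta list Itgav, Itgb8, Tgif1 and Smad7 were lower and none of 20 higher, with Itgav at 229, 210.2 and 139.7 against 445, 365 and 308 CPM (-0.97 ± 0.13, adjusted p = 8.6e-05). Effector genes went both ways, with 5 of 26 higher and 6 lower. The nucleotidase gene Nt5e was at 89.6, 108 and 111 against 47.5, 45.7 and 60.0 CPM (1.01 ± 0.19, adjusted p = 0.0027).

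The largest increases in vascular tissue also included Tmem176a (1.61 ± 0.26, adjusted p = 0.00052), its overlapping neighbour Tmem176b (1.43 ± 0.20, adjusted p = 0.00013), the pseudokinase gene Trib2 (1.56 ± 0.19, adjusted p = 2.3e-05), Podnl1, Pmm1, Tesc and Socs2, a suppressor of cytokine signalling that also rose in spleen (1.46 ± 0.27, adjusted p = 0.0061; adjusted p 0.52 without spleen library 3). The largest decreases held Rln3 (relaxin 3), at 3.58, 22.3 and 20.5 against 213, 239 and 194 CPM (-3.73 ± 0.36, adjusted p = 1.8e-06), Penk (proenkephalin), at 86.0, 38.2 and 55.5 against 397, 437 and 326 CPM (-2.75 ± 0.44, adjusted p = 0.00053), and Dgat2 (triglyceride synthesis; -2.85 ± 0.35, adjusted p = 3.9e-05). Jchain had 2 UMIs in Itgae+ Tregs, 0.00823 times the tissue-type level (95% counting interval 9.96e-04 to 0.0297), and its adjusted p was 0.39 without vascular library 1. Cxcl2, Fcer1g, Ctsh, H2-Eb1 and H2-Aa, genes known from myeloid and dendritic cells, were lower as well, with log2 differences of -2.51 to -2.12.

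Markers of other cells stood beside these decreases. The 13 dendritic cell markers summed to 541 to 2350 CPM in vascular Itgae+ and 2538 to 3417 CPM in tissue-type Tregs, and 4 of them (H2-Aa, H2-Ab1, Cd74 and Bst2) were lower in the former. The 8 markers of NK cells or innate lymphoid cells summed to 13.05 to 297 and 329 to 362 CPM, with the NK receptor gene Ncr1 at 0 in the Itgae+ Tregs of every library. Macrophage or monocyte markers summed to 29.4 to 91.2 and 108 to 164 CPM. In spleen the Itgae+ and tissue-type sums were 293 to 558 and 553 to 941 CPM for dendritic cells, 0 to 13.9 and 38.3 to 65.5 CPM for NK cells or innate lymphoid cells, and 11.3 to 51.0 and 63.4 to 144 CPM for macrophages or monocytes. Their part in the differences was not tested. With called doublets removed the comparison called 440 genes in place of 289, and H2-Aa and Fcer1g were still lower.

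In spleen the 20 largest differences held Plac8 (1.96 ± 0.39, adjusted p = 0.014; adjusted p 0.49 without spleen library 3), Ckb, Itm2b (0.85 ± 0.11, adjusted p = 0.00034), Glipr2, Saraf, Arl5c and the stem cell antigen gene Ly6a among the increases. The decreases held Rgs16, a regulator of G protein signalling (-1.84 ± 0.33, adjusted p = 0.006; adjusted p 0.49 without spleen library 2), the tetraspanin gene Cd81 (-1.61 ± 0.23, adjusted p = 0.00071; adjusted p 0.079 without spleen library 2), Wls, Bhlhe40, Rel, Bmyc, Itgav and Hacd3. For the 11 of these genes given without values the adjusted p rose to between 0.075 and 0.8 when 1 spleen library was left out. Itm2b, the gene that kept its call, was at 2365 and 2488 against 1366 and 1342 CPM. The number of genes called in spleen fell from 49 to 3 without spleen library 2 and to 17 without spleen library 3. Without called doublets Ikzf2, Plac8, Glipr2, Arl5c and Bmyc were not called in spleen. At 2000 UMIs per cell, where spleen library 2 alone is left, the direction turned in spleen for Pdcd1 (0.35), Ikzf2 (0.26), Cxcr3 (-0.18) and Ly6a (-0.070).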

How the data were processed

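The authors deposited a raw UMI count matrix per library. Per the submitters' processing notes the tools were FastQC 0.11.8, Cell Ranger 2.2.0, STAR 2.5.1b and Seurat, with genome build mm10, and per the labels' protocols single cells were captured with a 5′ kit. No annotation release was given in the sources used here.

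Cell barcodes under 300 genes or above 10% mitochondrial UMIs were dropped, which left 41303 of 41315 barcodes with 240821626 UMIs in all barcodes. Doublets were kept in the main results, and as an alternative the cells with the highest share of simulated doublets among their neighbours were removed (0.8% per 1000 barcodes of a library, 2607 cells). UMIs were summed per library and Treg class where at least 20 cells were present. The sums were tested with edgeR 4.0.16 in R 4.3.3 (TMM scaling, its filter on low counts, quasi-likelihood test, Benjamini-Hochberg adjusted p under 0.05). The tissue comparison was unpaired, and the class comparisons were fitted together with library as a block and class by tissue as the terms. The 7 rule genes were not tested. Shares were compared over 3 against 3 libraries by an exact two-sided permutation test with scipy 1.17.1, and the limit for a count of 0 is 3 counts of the total at a confidence level of 95%. Counting ratios have exact intervals at the same level. These take UMIs pooled over libraries as independent counts, so they leave out the spread between libraries and are too narrow as a guide to it. The fits were tested on simulated data, with changes put only into genes with an expected mean of at least 20 UMIs per sum. Recovery for genes with lower counts was not measured. Changes of 1 log2 unit were recovered for 63% of the changed genes between tissues. Against Itgae-undetected Tregs it was 51% in vascular tissue and 53% in spleen. For changes of 2 log2 units the shares were 99%, 87% and 91%. Each run had 4 to 6 false calls. A gene that did not pass may therefore still differ.

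Named genes are, for each comparison, the 10 largest differences in each direction among called genes with a mean of at least 50 CPM and no overlap between tissues or 1 sign in every library, leaving out mitochondrial, ribosomal, immunoglobulin, T cell receptor and unnamed genes. For each gene list the largest called members and a set of defining genes (such as Itgb7, Ikzf2 and Gata3) are also named, and other list members were chosen after their values were seen. The members and lists were chosen with earlier results of these data known. Some list members are not reported here and are left out of the list counts. Alternatives were DESeq2 1.42.0, its size factors, no filter on low counts, doublets removed, at least 2 Itgae UMIs, thinning to 2000 UMIs per cell, other comparison cells, a replicate block and each library left out. Reads from the overlapping genes Tmem176a and Tmem176b, and from near-identical copies (Hspa1a and Hspa1b, Ly6c1 and Ly6c2, histone genes), may be split between them. Gene coordinates are from GENCODE vM21 on GRCm38.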

Additional observations from a re-analysis of the deposited data

Results flagged for a closer look

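The difference between Itgae+ and Itgae-undetected Tregs was itself unequal in the 2 tissues for 26 genes, by the interaction term of edgeR's quasi-likelihood test (adjusted p under 0.05). Values are given for 17 of them, 13 chosen by size under the rule for named genes and 4 members of gene lists (Gzmb, Ifng, S100a4 and Hspa1a). Values are the vascular difference minus the spleen difference on the log2 scale. For Hspa1a it was -2.79, for Ifng -2.71, for Rrm2 -2.67, for Rln3 -2.57 and for Ltb4r1 -2.32. It was -2.06 for Gzmb, -1.97 for Lgals3 and -1.93 for Anxa2. S100a6 stood at -1.41, Pcna at -1.36, Lgals1 at -1.32, Crip1 at -1.25, Ahnak at -1.23 and S100a4 at -1.16. The interaction was positive for Jun (1.18), Ly6c1 (1.496) and Egr1 (1.81). Of these genes Anxa2, S100a6, Lgals1 and S100a4 kept their calls without any 1 library. The spleen level of Hspa1a in Itgae+ Tregs rested on spleen library 2, at 85.7 CPM against 11.8 CPM in library 3. Ifng there was at 80.4 and 13.8 CPM, on the scaling of the class comparison. Rrm2 in Itgae+ against Itgae-undetected Tregs was at 133 against 72.0 CPM in spleen library 2 and 32.3 against 46.6 CPM in library 3. Gzmb was higher in Itgae+ Tregs of vascular library 2 (433 against 195 CPM). It was lower in vascular libraries 1 (462 against 740 CPM) and 3 (257 against 499.6 CPM). Hspa1a and Gzmb were not called by DESeq2, and Ifng and Ly6c1 were not called with doublets removed.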

How the results depend on the processing

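Vascular against spleen Itgae+ Tregs gave 191 called genes, and 118 with DESeq2, 365 without a filter on low counts and 50 at 2000 UMIs per cell. Against Itgae-undetected Tregs the vascular count of 203 became 380.0 without the filter and 64 thinned. The spleen count of 275 became 88 against all other Foxp3+ cells, 421 without the filter and 40.0 thinned. Against tissue-type Tregs the vascular count of 289 became 172 with DESeq2, 440.0 without doublets, 552 without the filter and 69 thinned, and the spleen count of 49 became 125 and 7 under the last pair. The interaction count of 26 became 44 with at least 2 Itgae UMIs, 43 without doublets, 120.0 without the filter and 8 thinned. Thinning left 20 Itgae+ Tregs or more in spleen library 2 and vascular libraries 2 and 3 only, so those fits have fewer samples. The classes were also called anew on the thinned counts, so their cells differ from those of the main fits. Leaving out 1 library at a time gave 99 to 280.0 genes for tissue (99 without spleen library 2, 280.0 without vascular library 3, 122 without vascular library 2), 66 to 207 and 59 to 298 against Itgae-undetected Tregs in vascular tissue and spleen, 139 to 281 and 3 to 64 against tissue-type Tregs, and 7 to 27 for the interaction. The share differences ranged from 1.32 to 3.53 points of Foxp3+ cells and from 19.7 to 23.9 points of those without exclusion-gene UMIs.

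Single genes turned direction mostly under thinning, and the cause was not tested. Against Itgae-undetected Tregs these were Hist1h2ae (0.55), Ikzf2 (0.045), Cxcr6 (-0.32), Gbp2 (-0.65) and Ccr1 (-0.81) in vascular tissue, and Slfn5 (0.30), Rel (0.21), Ifi27l2a (-0.026), Ctla4 (-0.31), Il12rb1 (-5.60) and Hspa1a (-3.24) in spleen. Against tissue-type Tregs they were Itgb7 (-0.077) in vascular tissue and Pdcd1 (0.35), Ikzf2 (0.26), Ly6a (-0.070), Cxcr3 (-0.18) and Hspa1a (-4.76) in spleen. For the interaction they were Hspa1a (3.5997), Lgals3 (0.13), Pcna (0.22) and Ly6c1 (-2.01). Against all other Foxp3+ cells Rgs1 (-0.074) and Id2 (-0.45) turned in vascular tissue and Ikzf2 (-0.20) in spleen. With at least 2 Itgae UMIs Ikzf2 turned in spleen (-0.13). Without 1 library at a time Ikzf2 ranged from -0.28 to 0.40 there and Ifng from -0.0040 (without spleen library 2) to 2.60. Between tissues Itgb7 moved around 0, with -0.081 at 2 Itgae UMIs and -0.040 to 0.11 without 1 library at a time, and Ikzf2 ranged from -0.68 to 0.033. Over all alternatives 2576 values of called genes kept direction and call, 648 lost the call and 22 turned direction. The first count includes values that could not change. Between tissues, the fit without spleen library 1 was the main fit itself, since that library was already left out. Leaving out a library of 1 tissue also kept all class sums of the other tissue.

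With the replicate number as a block 183 genes were called between tissues, and Itgb7 was at -0.034. Same-numbered libraries correlated at -0.05, -0.08 and -0.13 in their deviations from the group means. Differently numbered ones correlated at -0.05 to 0.14, so no pairing showed. With sums of 13 to 65 cells, this cannot exclude that equal numbers mark the same animals. Ctla4, Ccr2 and Actn1 were not called under the block. Keeping spleen library 1 with its 13 cells, an alternative chosen after seeing the data, gave 190.0 genes. With few members per library, low-count genes are limited by depth.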
